A study of Mus musculus with 130 samples.

Results

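The genes described here encode the enzymes that turn glucose into lactate and the proteins that move both across the membrane. They are the 10 listed genes Slc2a1, Hk2, Pfkl, Aldoa, Pgk1, Eno1, Pkm, Ldha, Slc16a3 and Pdk1, found by symbol among 52550 genes in each of 10 RNA-seq libraries made from embryonic stem cells of the mouse. The study set mutants and an inhibitor of the H3K9 methyltransferases G9a and GLP, and mutants of the DNA methyltransferases, against their wild types. Each group is 1 library, so there is no replicate anywhere in these values. The inhibitor set holds 4 libraries of TT2 cells, wild type on the C57BL/6xCBA strain. Of these, 3 were treated with UNC0638, an inhibitor of G9a and GLP, and collected on day 2, 4 or 14, and the fourth is a DMSO control (the inhibitor control), for which the labels give no day. The titles give the dose as 250 nM, the treatment protocol as 250 µM. For day 14 it is not stated whether the inhibitor was present throughout. The other 6 libraries are called lines here. Of these, 3 are on strain 129S4/SvJae: Dnmt3a/3b-/- cells (Dnmt3a/3b DKO), Dnmt1/3a/3b-/- cells (Dnmt1/3a/3b TKO) and wild type J1 (WT J1). The other 3 are on C57BL/6xCBA: clone 248-6, labelled G9a-/-;GLP-/- (the library labelled G9a/GLP DKO), clone G7, which lacks G9a and carries a G9a transgene with Y1120V and Y1207F (G9a CM), and wild type TT2 (WT TT2). Each of these G9a mutants is 1 clone, and all 10 libraries come from cells grown on gelatin in serum with leukemia inhibitory factor.

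Glycolysis splits glucose into pyruvate in the cytosol and yields ATP without oxygen. Lactate dehydrogenase then turns pyruvate into lactate, which renews the NAD+ that the pathway needs, and monocarboxylate transporters carry lactate out of the cell. Pluripotent stem cells are known for a high glycolytic rate even where oxygen is present, and many of the genes named here are textbook targets of the hypoxia-inducible factor HIF-1.

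Levels are given in TPM, a unit scaled for library size and gene length, which allows genes to be set side by side. Differences between libraries are given in CPM, a unit scaled for library size only. By the size rule used here, a higher or lower gene has a log2(CPM + 1) difference of at least 1, with at least 1 CPM in either library and an exact 95% counting interval of the count ratio that excludes 1. These intervals cover the counting error of reads only and no spread between cultures. Reads amplified by PCR and lacking molecular identifiers are no count of molecules, so the intervals can be too narrow even for counting error. Library totals ran from 11436808 to 25609600 counts. All 10 embryonic stem cell markers of the list used were detected in every library, with a summed level of 10576 to 41386 TPM. Dppa5a made up most of each sum, with 8422 TPM in WT TT2 and 39515 TPM in WT J1. Pou5f1 stood at 435 to 557 TPM in the inhibitor set, against 7.61 to 33.1 TPM in the lines. The 10 fibroblast markers summed to 2.60 to 6.6 TPM and 1 to 6 of them were at 0. Trophoblast markers summed to 57.9 to 126 TPM in the inhibitor set, against 8.27 to 61.4 TPM in the lines. Mitochondrial transcripts took 1.49% to 2.12% of counts in the inhibitor set, against 2.68% to 5.05% in the lines. The part of these differences in the results below was not tested, and in bulk RNA fewer cells of a type and less RNA per cell cannot be told apart. As a check of the labels, Ehmt1, the gene for GLP, stood at 6.71 TPM in the library labelled G9a/GLP DKO, against 23.9 TPM in WT TT2, but Ehmt2, the gene for G9a, stood at 13.01 TPM there, against 10.1 TPM in WT TT2. Dnmt3b stood at 3.05 CPM in Dnmt3a/3b DKO and 2.68 CPM in Dnmt1/3a/3b TKO, against 26.9 CPM in WT J1, and Dnmt1 at 6.35 CPM in Dnmt1/3a/3b TKO, against 46.65 CPM in WT J1. Dnmt3a stood at 4.30 CPM in the DKO and 4.76 CPM in the TKO, against 17.4 CPM in WT J1, but by TPM it was not lower in the DKO, at 5.07 TPM there and 4.49 TPM in the TKO, against 4.66 TPM in WT J1.

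The 10 genes were far more abundant in the inhibitor set than in the lines. Their summed level was 14879 TPM in the inhibitor control, 19199.9 TPM on day 2, 13584 TPM on day 4 and 14809 TPM on day 14. It was 2669.6 TPM in Dnmt3a/3b DKO and 1930.7 TPM in Dnmt1/3a/3b TKO, against 966 TPM in WT J1. The library labelled G9a/GLP DKO held 2964 TPM and G9a CM 4491 TPM, against 2018 TPM in WT TT2. As a share of all TPM, this ran from 0.0966% in WT J1 to 1.92% on day 2. For 8 of the 10 genes, all 4 libraries of the inhibitor set lay above all 6 lines, with no overlap. Of 16209 genes at 1 TPM or more, 31.4% lay that way and 13.8% lay the other way, so a separation of this kind was common among all genes. Hk2 and Pgk1 overlapped. The lowest of the 10 libraries was WT J1 for 7 of the genes, and the highest was day 2 for 8 of them. The inhibitor control, which had DMSO and no inhibitor, lay above all 6 lines for the 8 genes without overlap as well. No label says whether the inhibitor set and the lines were grown or sequenced together. A difference of preparation therefore cannot be told apart from other differences between the sets.

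**Figure D1:**
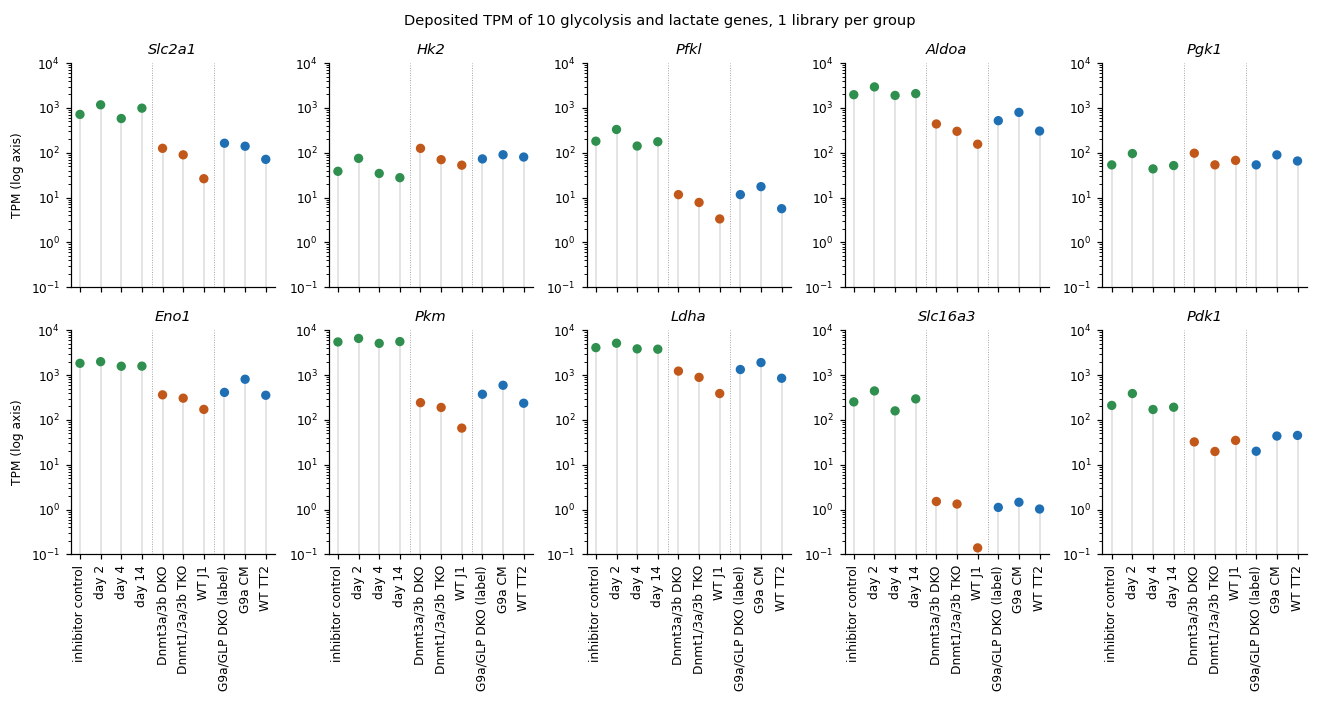
Deposited TPM (log axis) of each of the 10 genes in the 10 libraries, with the inhibitor set in green, the 129S4/SvJae lines in orange and the C57BL/6xCBA lines in blue, and 1 point for 1 library. The green points lie above all others for 8 genes, whereas those of Hk2 and Pgk1 overlap with the lines.

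Glucose enters the cell through Slc2a1, which encodes the transporter GLUT1 (ENSMUSG00000028645.11, chromosome 4, 119108745 to 119137330, GRCm38). Slc2a1 had 715 TPM in the inhibitor control and 1172, 579 and 986 TPM on days 2, 4 and 14. It had 125 TPM in Dnmt3a/3b DKO and 89.6 TPM in Dnmt1/3a/3b TKO, against 26.3 TPM in WT J1. At 163 and 139.6 TPM, the library labelled G9a/GLP DKO and G9a CM lay above WT TT2 at 71.1 TPM. All 4 mutants were thus above their own wild type, and WT J1 was the lowest of all. Slc2a3, which encodes a further glucose transporter of the same family, took a larger share only in WT J1, at 76.5 TPM, where Slc2a1 made up 25.6% of the pair. In the other 9 libraries Slc2a1 made up 51.8% to 72.2% of the pair.

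Hexokinase traps glucose in the cell by phosphorylating it, and Hk2 encodes its inducible form (ENSMUSG00000000628.10, chromosome 6, 82725025 to 82774454). Hk2 stood at 38.5 TPM in the inhibitor control and at 74.8, 34.5 and 27.7 TPM on days 2, 4 and 14. Its level was 125 TPM in Dnmt3a/3b DKO and 70.0 TPM in Dnmt1/3a/3b TKO, against 52.7 TPM in WT J1. By CPM the Dnmt3a/3b DKO value was only 1.40 times that of WT J1. Values of 72.7 TPM in the library labelled G9a/GLP DKO and 90.1 TPM in G9a CM stood beside 80.0 TPM in WT TT2. Hk2 therefore had its highest level in a line and its 3 lowest levels in the inhibitor set. Hk1, the form found in most tissues, ran the other way. It had 19.6 to 38.9 TPM in the inhibitor set, against 0.670 to 0.920 TPM in the lines, so that Hk2 made up 54.0% to 65.8% of the pair in the inhibitor set and 98.7% to 99.3% in the lines.

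Phosphofructokinase carries out the committed step of the pathway, and Pfkl encodes its liver-type subunit (ENSMUSG00000020277.10, chromosome 10, 77986947 to 78009807). Pfkl had 181 TPM in the inhibitor control and 330.1, 141 and 176 TPM on days 2, 4 and 14. Levels were 11.6 TPM in Dnmt3a/3b DKO and 7.76 TPM in Dnmt1/3a/3b TKO, against 3.33 TPM in WT J1. They were 11.6 TPM in the library labelled G9a/GLP DKO and 17.5 TPM in G9a CM, against 5.64 TPM in WT TT2. The lowest library of the inhibitor set was 8.05 times the highest line. The platelet-type subunit Pfkp had 109 to 358 TPM in the inhibitor set, against 19.1 to 80.0 TPM in the lines. Pfkl made up 48.0% to 62.4% of the Pfkl and Pfkp sum in the inhibitor set and 13.5% to 19.2% in the lines, ranges that do not overlap.

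Aldolase A, the product of Aldoa, splits the sugar bisphosphate into triose phosphates (ENSMUSG00000030695.15, chromosome 7, 126795234 to 126800994). Aldoa had 1969 TPM in the inhibitor control and 2939, 1897 and 2084 TPM on days 2, 4 and 14. The Dnmt3a/3b DKO library had 438 TPM and the Dnmt1/3a/3b TKO library 301 TPM, against 155 TPM in WT J1. The library labelled G9a/GLP DKO and G9a CM had 518 and 794 TPM, against 304 TPM in WT TT2. G9a CM was the highest line, and the lowest library of the inhibitor set was 2.39 times as high. A second identifier that carries the symbol Aldoa held 18 counts over all libraries and was left out.

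Phosphoglycerate kinase, encoded by Pgk1 on the X chromosome, carries out the first step that forms ATP (ENSMUSG00000062070.12, chromosome X, 106187100 to 106203699). Pgk1 stood at 53.5 TPM in the inhibitor control and at 95.7, 43.6 and 51.7 TPM on days 2, 4 and 14. It stood at 97.4 TPM in Dnmt3a/3b DKO and 53.6 TPM in Dnmt1/3a/3b TKO, against 67.4 TPM in WT J1. In the library labelled G9a/GLP DKO and in G9a CM it stood at 53.6 and 89.4 TPM, against 65.4 TPM in WT TT2. Its highest library was 2.24 times its lowest, the narrowest range of the 10 genes, and, as for Hk2, the highest level was in a line and the 3 lowest were in the inhibitor set. Set beside this, Pkm stood at 68.9 to 117 times Pgk1 in the inhibitor set, against 0.977 to 6.998 times in the lines.

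Enolase, encoded by Eno1, makes phosphoenolpyruvate (ENSMUSG00000063524.13, chromosome 4, 150236708 to 150248879). Eno1 had 1838 TPM in the inhibitor control and 1999.6, 1580.3 and 1589 TPM on days 2, 4 and 14. Its levels were 363 TPM in Dnmt3a/3b DKO and 306 TPM in Dnmt1/3a/3b TKO, against 172 TPM in WT J1. They were 412 and 810.3 TPM in the library labelled G9a/GLP DKO and in G9a CM, against 356 TPM in WT TT2. The retrocopy Eno1b was counted at 335 to 401 TPM in the inhibitor set, against 42.5 to 113 TPM in the lines. Reads that match both copies are shared out by the counting, so the split between them is uncertain. Eno1 had 3.61 to 8.11 times the level of Eno1b in every library.

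Pyruvate kinase, the product of Pkm, carries out the last step that forms ATP (ENSMUSG00000032294.17, chromosome 9, 59656576 to 59679372). Pkm had 5507 TPM in the inhibitor control and 6596, 5118 and 5614 TPM on days 2, 4 and 14, the highest level of any of the 10 genes in each of these libraries. Dnmt3a/3b DKO held 243 TPM and Dnmt1/3a/3b TKO 190.2 TPM, against 65.9 TPM in WT J1. The library labelled G9a/GLP DKO and G9a CM held 375 and 595 TPM, against 236 TPM in WT TT2. Pkm made up 34.4% to 37.9% of the summed level of the 10 genes in the inhibitor set, against 6.81% to 13.2% in the lines. The gene gives rise to M1 and M2 transcripts by alternative splicing, which values per gene do not separate. Pklr, the liver and red cell gene, was below 1 TPM throughout.

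Lactate dehydrogenase A, the product of Ldha, reduces pyruvate to lactate (ENSMUSG00000063229.15, chromosome 7, 46842274 to 46855627). Ldha had 4113 TPM in the inhibitor control and 5161, 3859 and 3793 TPM on days 2, 4 and 14. It had 1232 TPM in Dnmt3a/3b DKO and 892 TPM in Dnmt1/3a/3b TKO, against 389 TPM in WT J1. With 1336 TPM in the library labelled G9a/GLP DKO and 1909.8 TPM in G9a CM, both were above WT TT2 at 853 TPM. Ldha was the most abundant of the 10 genes in each of the 6 lines, at 40.2% to 46.2% of their sum, against 25.6% to 28.4% in the inhibitor set. Ldhb, which encodes the subunit that favours the reverse reaction, had 421 TPM in the library labelled G9a/GLP DKO and 922 TPM in G9a CM, against 1462 TPM in WT TT2. WT TT2 was the one library with more Ldhb than Ldha, and Ldha made up 76.0% of the pair in the library labelled G9a/GLP DKO and 67.4% in G9a CM, against 36.9% in WT TT2. In the other 7 libraries the share was 57.9% to 78.0%.

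Lactate leaves the cell through MCT4, the product of Slc16a3 (ENSMUSG00000025161.16, chromosome 11, 120948484 to 120959000). Slc16a3 had 253 TPM in the inhibitor control and 444, 159.6 and 295 TPM on days 2, 4 and 14. It was low in the lines, with 25 to 69 counts in 5 of them, at 1.52 TPM in Dnmt3a/3b DKO and 1.33 TPM in Dnmt1/3a/3b TKO, against 0.140 TPM, or 8 counts, in WT J1. A level of 1.12 TPM in the library labelled G9a/GLP DKO and of 1.46 TPM in G9a CM stood beside 1.03 TPM in WT TT2. The lowest library of the inhibitor set was 105 times the highest line, the widest gap among the 10 genes. Slc16a1, which encodes the broadly expressed transporter MCT1, had 75.9 to 83.8 TPM in the inhibitor set, against 9.61 to 27.6 TPM in the lines. Slc16a3 made up 67.8% to 84.9% of the pair in the inhibitor set, against 1.44% to 8.53% in the lines, so that the order of the pair was opposite.

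Pdk1 encodes a kinase that restrains the entry of pyruvate into the mitochondrial citric acid cycle by phosphorylating pyruvate dehydrogenase (ENSMUSG00000006494.11, chromosome 2, 71873215 to 71903858). Pdk1 had 211 TPM in the inhibitor control and 389, 171 and 192 TPM on days 2, 4 and 14. Mutants lay below or beside their wild type, at 32.4 TPM in Dnmt3a/3b DKO and 19.8 TPM in Dnmt1/3a/3b TKO, against 35 TPM in WT J1. The library labelled G9a/GLP DKO had 20.1 TPM and G9a CM 43.8 TPM, against 45.3 TPM in WT TT2. Pdk3, a further kinase of the family, overlapped between the sets, at 56.4 to 70.9 TPM in the inhibitor set and 34.2 to 66.8 TPM in the lines. Pdk1 made up 75.2% to 84.6% of the Pdk1 and Pdk3 sum in the inhibitor set, against 27.96% to 50.6% in the lines.

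**Figure D2:**
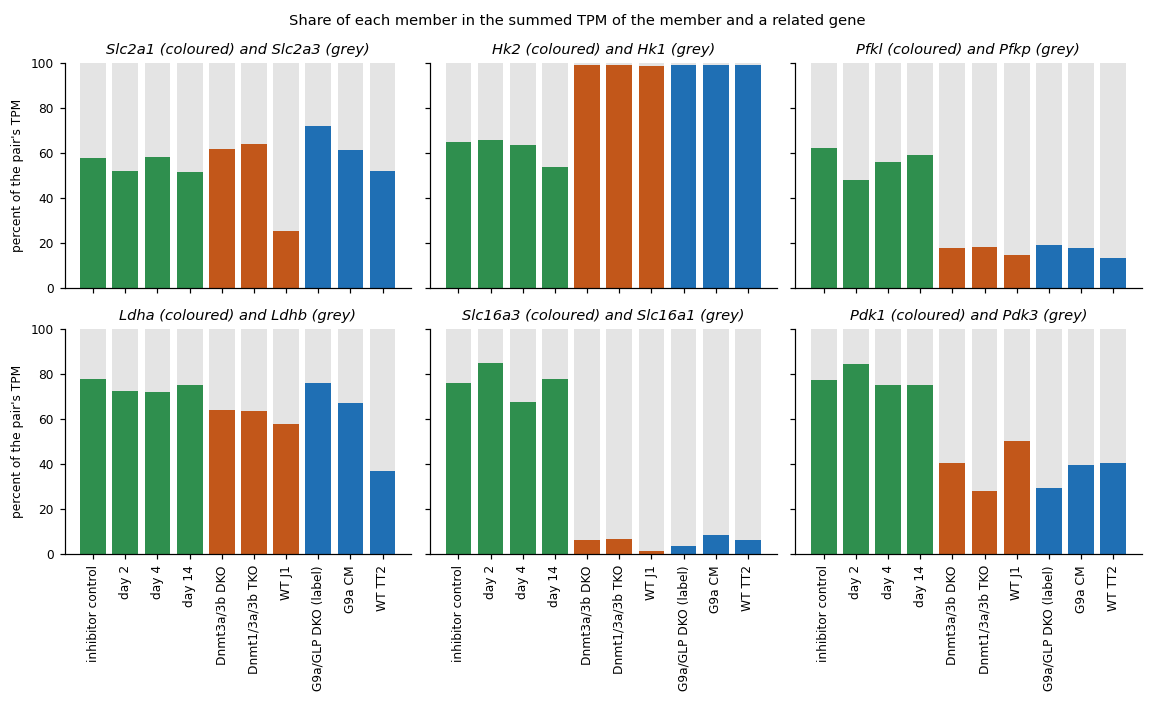
Share (percent) of each member in the summed TPM of the member (coloured) and a related gene (grey) for 6 pairs in the 10 libraries, coloured by set as green (inhibitor set), orange (129S4/SvJae lines) and blue (C57BL/6xCBA lines). The shares of Hk2, Pfkl, Slc16a3 and Pdk1 do not overlap between the inhibitor set and the lines, and the blue bar of Ldha in WT TT2, at 36.9%, is the lowest of its panel.

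The start regions of these genes are shown because 8 of the 10 moved together between the sets while Hk2 and Pgk1 did not. For all 10 genes, 17 windows of 300 bases (250 before to 50 after a start) were found in RefSeq tables of GRCm38.p6. They were searched on both strands for ACGTG and GCGTG, the letters of the core of the element that HIF-1 is known to bind, and for CACGTG, the E-box that Myc and Max are known to bind, which holds ACGTG on both strands. ACGTG or GCGTG stood in 14 of the 17 windows (82.4%), against 43.8% of all 32851 windows. Windows of a gene can overlap, as for Aldoa and Eno1, so the same match can count in more than 1 window. A gene with more windows also has more ways to hold a match. No share of windows was taken for genes at 10 CPM or more. ACGTG stood in a window of 7 of the 10 genes, against 21.8% of 27025 genes, and GCGTG in 5 of 10, against 35.2%. Among genes at 10 CPM or more the shares were 30.7% for ACGTG and 58.2% for GCGTG, so that GCGTG was no more frequent in the 10 genes than in these. Either stood in a window of all 10 genes, against 46.7% of all genes and 69.9% of genes at 10 CPM or more. CACGTG stood only in Ldha among them, against 8.09% of all genes. Where a gene has more than 1 window, the one with the most ACGTG or GCGTG matches in the 250 bases before its start is printed. The window left out had 0 such matches for Pkm and 1 for Ldha. The following are the 150 bases before a start, 5′ to 3′ on the strand of the gene, with ACGTG or GCGTG of either strand in capitals. They are given first for 5 of the 8 genes without overlap and then for Hk2 and Pgk1. The windows are chr4:119108595-119108744 (plus strand) for Slc2a1, chr10:78009808-78009957 (minus) for Pfkl, chr9:59657077-59657226 (plus) for Pkm, chr7:46845654-46845803 (plus) for Ldha, chr11:120948917-120949066 (plus) for Slc16a3, chr6:82774455-82774604 (minus) for Hk2 and chrX:106186950-106187099 (plus) for Pgk1.
Slc2a1: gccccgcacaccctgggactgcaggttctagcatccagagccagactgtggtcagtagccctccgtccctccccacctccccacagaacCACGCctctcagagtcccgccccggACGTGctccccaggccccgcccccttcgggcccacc
Pfkl: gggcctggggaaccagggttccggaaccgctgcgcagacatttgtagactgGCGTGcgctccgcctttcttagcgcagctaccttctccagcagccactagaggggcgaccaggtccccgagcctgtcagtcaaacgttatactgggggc
Pkm: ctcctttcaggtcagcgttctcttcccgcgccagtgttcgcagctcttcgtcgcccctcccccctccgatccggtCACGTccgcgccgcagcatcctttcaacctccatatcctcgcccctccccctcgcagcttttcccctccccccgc
Ldha: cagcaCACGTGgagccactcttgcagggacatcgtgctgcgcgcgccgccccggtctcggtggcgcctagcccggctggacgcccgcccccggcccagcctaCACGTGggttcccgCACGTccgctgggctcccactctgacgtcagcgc
Slc16a3: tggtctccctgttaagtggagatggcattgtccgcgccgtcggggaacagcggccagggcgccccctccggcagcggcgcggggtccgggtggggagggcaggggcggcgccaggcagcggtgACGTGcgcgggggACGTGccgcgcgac
Hk2: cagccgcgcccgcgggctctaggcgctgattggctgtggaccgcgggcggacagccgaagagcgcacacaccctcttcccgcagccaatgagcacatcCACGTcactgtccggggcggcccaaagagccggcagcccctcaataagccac
Pgk1: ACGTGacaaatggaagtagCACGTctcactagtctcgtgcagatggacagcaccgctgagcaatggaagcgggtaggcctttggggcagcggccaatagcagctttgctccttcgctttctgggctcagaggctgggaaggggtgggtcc

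Hk2 and Pgk1, whose levels in the inhibitor set overlapped with the lines, hold ACGTG and not GCGTG. The same is true of Aldoa, Pkm and Slc16a3, which did not overlap. Of the other genes without overlap, Pfkl, Eno1 and Pdk1 hold GCGTG and not ACGTG, and Slc2a1 and Ldha hold both. Slc16a3 has ACGTG at 27 and 14 bases before its start and Ldha holds CACGTG at 2 places. These matches describe the letters of the windows and nothing more, and no binding data of a factor were used.

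The inhibitor control and WT TT2 are both labelled wild-type TT2, and they were set against each other to ask how far 2 libraries of 1 line without inhibitor can lie apart. Of the 10 genes, 8 were higher in the inhibitor control (25.2% of 13667 measured genes were) and 1 was lower (22.0% were). The lactate exporter Slc16a3 differed most, with 365 CPM in the inhibitor control and 2.71 CPM in WT TT2, a 135-fold difference (interval 106 to 173), and only 0.0220% of measured genes differed by more. Pfkl was 25.3-fold higher (interval 23.2 to 27.8), Pkm 18.2-fold (interval 17.9 to 18.5) and Slc2a1 9.39-fold (interval 9.10 to 9.70). Smaller folds were found for Aldoa at 4.93, Eno1 at 4.53, Ldha at 3.67 and Pdk1 at 3.16. Hk2 was 2.36-fold lower (interval 2.20 to 2.54), and Pgk1 did not pass, with a log2 difference of -0.66. The pathway was thus uneven, since the genes of the steps just before and after Pgk1 passed as higher, Gapdh at a log2 difference of 1.76 and Pgam1 at 1.55. The median log2 difference was 2.24 over the 10 genes, against -0.01 over all genes.

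Other genes of carbohydrate metabolism were counted in the same pair. One list holds 30 further genes of glycolysis and lactate handling, and a gene in any list counts as measured with at least 1 CPM in either library, so one near 0 in 1 library passes only through the other. Of the 26 measured further glycolysis genes, 12 were higher and 0 lower in the inhibitor control, with a median log2 difference of 0.92. They include Hk1 at a log2 difference of 3.98, Slc2a3 at 2.62, Slc2a8 at 2.31 and Slc16a1 at 2.01. Gpi1, the isomerase after hexokinase, was higher with 1.95. In the pentose phosphate pathway, which branches off after hexokinase, 4 of 6 measured genes were higher and 0 lower, with Tkt at 3.40 and Pgd at 2.86. The citric acid cycle list had 5 of 16 higher, led by Ogdh at 2.62, and 3 lower. Of 13 genes for the entry of pyruvate into mitochondria, 2 were higher, Dlat at 1.73 and Pdk2 at 1.56, and 2 were lower, the carrier subunits Mpc1 at -1.78 and Mpc2 at -1.73. The list called hypoxia-inducible genes outside glycolysis had 7 of 24 higher and 7 lower. It shares Pfkfb3 and Pfkfb4 with the further glycolysis genes, and both passed as higher and count in each list. The counts of these last 3 lists lie near the shares over all measured genes, 25.2% higher and 22.0% lower, and read as nothing particular to them. Myc and Mycn, transcription factors known to drive glycolytic genes, were higher at 3.70 and 2.78. Of the 10 stem cell markers, Pou5f1 and Utf1 were higher and Sox2, Klf4 and Dppa5a lower in the inhibitor control, with a median of -0.23, and Pou5f1 stood at 557 TPM there, against 11.9 TPM in WT TT2. Trophoblast markers had 5 of 7 measured higher and primitive endoderm markers 3 of 3, out of 8 listed. Hand1 at 0.315 CPM and Gata4 at 0.0787 CPM in WT TT2 counted as measured only through the inhibitor control. Among the unmeasured primitive endoderm markers, Gata6, Pdgfra and Afp lay lower there and Sox17 and Foxa2 higher, all below 1 CPM. The part of these markers was not tested.

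What differs in a line labelled as lacking both methyltransferases was read from the library labelled G9a/GLP DKO, set against WT TT2. None of the 10 genes was higher by the rule (9.77% of 14027 measured genes were) and Pdk1 alone was lower (7.09% were). Pdk1 stood at 58.3 CPM in the library labelled G9a/GLP DKO and at 152 CPM in WT TT2, a 2.61-fold difference (interval 2.41 to 2.82). Slc2a1 at a log2 difference of 0.96 and Pfkl at 0.82 lay just under the threshold, and Slc2a1 passed it by TPM, at 1.19. The median over the 10 genes was 0.24, against 0.04 over all genes. Of the further glycolysis genes, 0 of 22 were higher and 7 were lower, led by Ldhb at -2.01, Aldoc at -1.84, Pgam2 at -1.62 and Bpgm at -1.50. With WT J1 in place of WT TT2, 6 of the 10 genes were higher, and with the inhibitor control 8 were lower, so the count depends on which wild-type library is used.

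G9a CM, the catalytic mutant, had 5 of the 10 genes higher than WT TT2 (5.4% of 13504 measured genes were) and 0 lower (5.07% were). The 5 encode enzymes from phosphofructokinase to lactate dehydrogenase. Of the same stretch, Pgk1 at a log2 difference of 0.31, Gapdh at 0.78 and Pgam1 at 0.23 did not pass. Pfkl was 2.80-fold higher (interval 2.52 to 3.12), at 57.0 CPM in G9a CM and 20.3 CPM in WT TT2. Aldoa was 2.36-fold higher (interval 2.30 to 2.42), Pkm 2.28-fold (interval 2.23 to 2.33), Eno1 2.08-fold (interval 2.03 to 2.12) and Ldha 2.02-fold (interval 1.99 to 2.05). Eno1 and Ldha lie at the threshold, and with scaling factors over all genes the count was 3, without them. Slc2a1 at a log2 difference of 0.90 did not pass, and Hk2 at 0.04, Slc16a3 at 0.15 and Pdk1 at -0.03 were near 0. The median was 0.96 over the 10 genes, against -0.03 over all genes. The triose phosphate isomerase gene Tpi1 was higher too, at 1.38, and together with the muscle enolase gene Eno3 at 1.04 made up the 2 of 22 further glycolysis genes that passed, with 0 lower. Myc was higher at 2.70 here and at 2.18 in the library labelled G9a/GLP DKO. Both comparisons share WT TT2, so their values are not independent. With the inhibitor control in place of WT TT2, 1 gene was higher and 7 were lower in G9a CM, and Pfkl, for example, stood at -3.15.

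**Figure D3:**
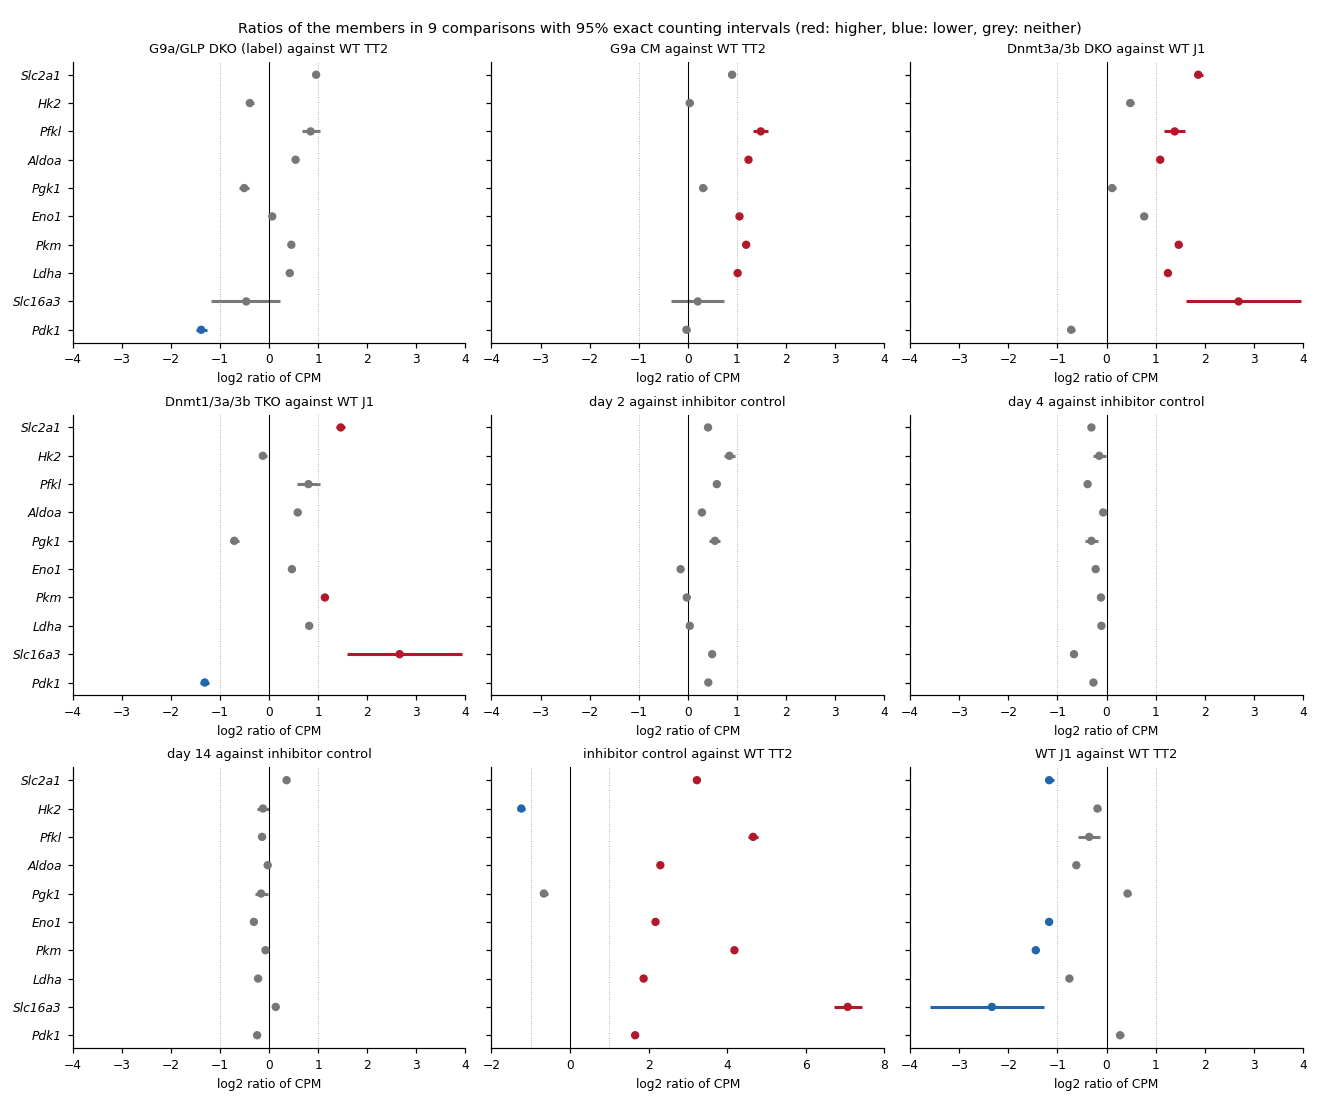
Log2 ratio of CPM (without a pseudocount) of the 10 genes in 9 comparisons, with 95% exact counting intervals as bars, many of them narrower than the point, and with dotted lines at a log2 ratio of 1 either way. Red and blue points passed the size rule as higher or lower, and the axis of the inhibitor control against WT TT2 runs further, to the ratio of Slc16a3.

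The Dnmt mutants were set against WT J1, and they differ from each other by genotype in Dnmt1, which Dnmt3a/3b DKO keeps. In Dnmt3a/3b DKO, 6 of the 10 genes were higher (9.23% of 13743 measured genes were) and 0 lower (9.89% were). Slc2a1 led among the well-counted genes, with 294 CPM in Dnmt3a/3b DKO and 80.5 CPM in WT J1, a 3.65-fold difference (interval 3.43 to 3.89). Pkm was 2.77-fold higher, Pfkl 2.62-fold, Ldha 2.38-fold and Aldoa 2.13-fold. By TPM Hk2 and Eno1 lay past the threshold too, at log2 differences of 1.23 and 1.07, but by CPM they stood at 0.48 and 0.765. Slc16a3 passed at 3.47 CPM in Dnmt3a/3b DKO against 0.537 CPM in WT J1, a ratio of 6.45 with an interval of 3.07 to 15.7 that rests on 8 counts in WT J1. In Dnmt1/3a/3b TKO, 3 of the 10 genes were higher (11.0% of 13924 measured genes were) and Pdk1 was lower (10.6% were). The 3 were Slc2a1 at 2.75-fold (interval 2.58 to 2.94), Pkm at 2.20-fold (interval 2.11 to 2.30) and Slc16a3 at 6.32-fold (interval 3.02 to 15.3). Pdk1 was 2.48-fold lower (interval 2.32 to 2.65), at 74.2 CPM in Dnmt1/3a/3b TKO and 184 CPM in WT J1, but by TPM its log2 difference was -0.79 and did not pass. All measured trophoblast markers were higher too, 6 of 6 in the DKO and 7 of 7 in the TKO. Hand1 at 0 CPM, Gata3 at 0.0671 CPM and Krt7 at 0.336 CPM in WT J1 counted as measured only through a mutant. The whole list summed to 40.0 TPM in the DKO and 37.9 TPM in the TKO, against 8.27 TPM in WT J1. The stem cell markers Klf4, Dppa5a and Tfcp2l1 were lower in both, and the part of these markers was not tested. Median differences were 1.17 and 0.68 over the 10 genes, against 0.01 and -0.02 over all genes.

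Both mutants share WT J1, where 7 of the 10 genes had their lowest level. With WT TT2 in its place 0 of the 10 genes were higher in either mutant. Slc2a1 then stood at a log2 difference of 0.70 in the DKO and 0.29 in the TKO, and Pkm at 0.03 in the DKO and -0.30 in the TKO. Between the wild types, which differ in strain, 0 of the 10 genes were higher in WT J1 (12.5% of 13735 measured genes were) and 4 were lower (11.0% were). They are Pkm, 2.72-fold lower (interval 2.61 to 2.83), Eno1, 2.25-fold (interval 2.17 to 2.33), Slc2a1, 2.25-fold (interval 2.11 to 2.40), and Slc16a3, 5.05-fold (interval 2.43 to 12.2) on low counts. Around the 10 genes, 8 of 24 hypoxia-inducible genes were higher and 1 lower in Dnmt3a/3b DKO, led by Ak4 at 2.30 and Ankrd37 at 1.53, beside 9.23% and 9.89% of all measured genes. In Dnmt1/3a/3b TKO, 3 of 23 were higher and 2 lower, near the 11.0% and 10.6% of all measured genes. Adm at 0.0671 CPM and Car12 at 0.470 CPM in WT J1 counted as measured only through a mutant. Mycn was higher in both mutants, at 2.66 and 1.72, and so was the enolase gene Eno3, at 1.86 and 1.65.

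The inhibitor series asks what changes after G9a and GLP are inhibited, and the 3 days share 1 control library. On day 2, 0 of the 10 genes passed the rule in either direction (3.12% of 13294 measured genes were higher and 1.84% lower). Counting intervals, which exclude 1 at small differences in genes with many counts, lay above a ratio of 1 for 8 genes and below it for Eno1 and Pkm. The share of all genes with such intervals was not counted. The median log2 difference was 0.41, against 0.01 over all genes. Hk2 came nearest, with 123 CPM on day 2 and 68.4 CPM in the control, a ratio of 1.80 (interval 1.67 to 1.94), and it passed when scaled by total counts, at a log2 difference of 1.06. Pfkl followed at 1.51 (interval 1.46 to 1.55), Pgk1 at 1.47 (interval 1.36 to 1.59) and Slc16a3 at 1.41 (interval 1.36 to 1.46). Aldoa lay at 1.22, Ldha at 1.03, Pkm at 0.985 and Eno1 at 0.903. Day 2 differences thus ran between Eno1 at the low end and Hk2 at the high end, all under the size threshold.

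On day 4, all 10 genes lay below the control with counting intervals below 1, and 0 passed (1.95% of 13112 measured genes were higher and 0.671% lower). Ratios ran between 0.631 for Slc16a3 (interval 0.605 to 0.659) and 0.953 for Aldoa (interval 0.938 to 0.969), and the median log2 difference was -0.24, against -0.003 over all genes. Of all measured genes, 6.78% differed by more than Slc16a3 and 77.1% by more than Aldoa. Here too the share of all genes with intervals excluding 1 was not counted. On day 14, 0 passed again (2.92% of 13269 measured genes were higher and 0.535% lower). Slc2a1 stood at a ratio of 1.28 (interval 1.26 to 1.30) and Slc16a3 at 1.10 (interval 1.06 to 1.14), while the other 8 lay at 0.807 to 0.981. Of these, Hk2 had an interval of 0.838 to 1.01, which includes 1. Over the 3 days no gene kept rising, and day 2 held the highest of the 4 levels for each of the 10 genes by TPM. By CPM the control was highest for Eno1, at 2548 CPM against 2302 CPM on day 2. The same was true of Pkm, at 9876 CPM against 9727 CPM on day 2.

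Genes known to respond to low oxygen were counted on the same days, from a list chosen with earlier results of these data known. On day 2, 13 of 24 measured hypoxia-inducible genes outside glycolysis were higher (3.12% of all measured genes were). None (0) were lower (1.84% were), and the median was 1.05. Bhlhe40, which encodes a transcriptional repressor, stood at 2.51, Bnip3, which encodes a mitophagy receptor, at 2.33, Ddit4, which encodes a repressor of mTOR signalling, at 2.24 and Ndrg1 at 1.88. Of the further glycolysis genes, 4 of 26 passed as higher and 0 as lower. Pfkp stood at 1.55, Eno2 at 1.34 and Aldoc at 1.07. Egln3 and Egln1, which encode oxygen-sensing hydroxylases of HIF, were higher at 1.57 and 1.09, whereas Hif1a itself stood at -0.09. Pdk4, a relative of Pdk1, was higher at 1.15, and Myc and Mycn were lower at -1.94 and -1.03. On day 4, 0 of 23 measured hypoxia-inducible genes were higher (1.95% of all measured genes were) and 1, Stc2, was lower (0.671% were). On day 14, 3 of 23 were higher, Bhlhe40, Adm and Ak4 (2.92% of all measured genes were), and 0 were lower (0.535% were). Embryonic stem cell markers had 0 of 10 past the rule in either direction on each day. Of the trophoblast markers, Krt18 and Krt19 were lower on all 3 days and Gata3 was higher on days 4 and 14. Primitive endoderm markers had 3 of 5 measured higher on day 14, Gata4, Sox17 and Pdgfra, with a median of 1.11. Sox17 and Pdgfra stood at 0.294 and 0 CPM in the control and counted as measured only through day 14, at 2.00 and 1.16 CPM. The part of these markers in the results was not tested.

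**Figure D4:**
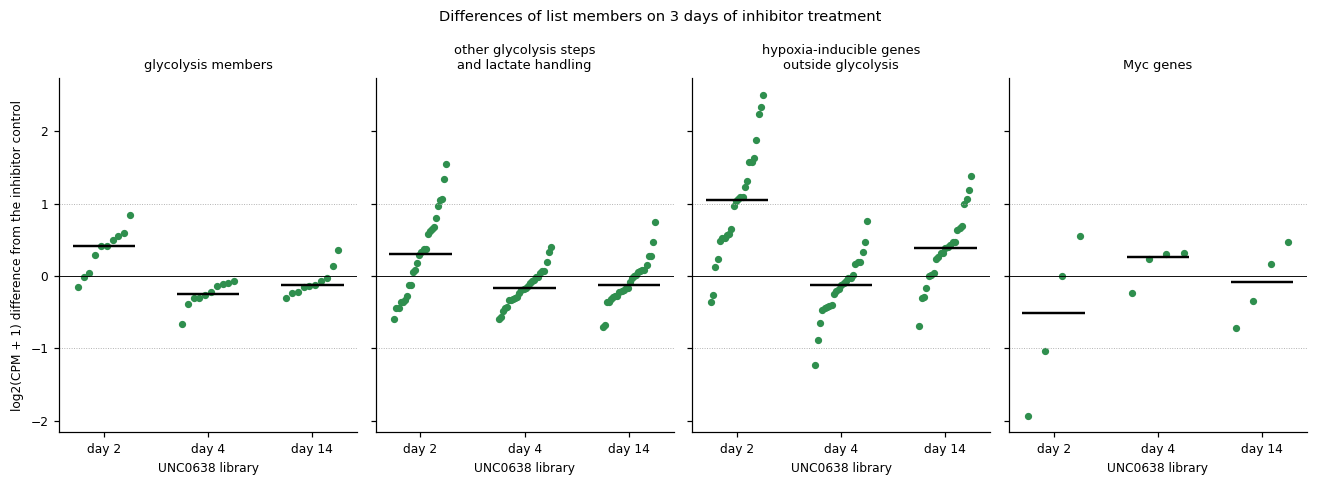
Difference in log2(CPM + 1) between each of 3 UNC0638 libraries and the inhibitor control for the measured genes of 4 lists, with 1 point for each gene, black lines at the median and dotted lines at a difference of 1 either way. On day 2 the median is 1.05 for hypoxia-inducible genes outside glycolysis and 0.41 for the 10 members, and on day 4 every member lies below 0. Pfkfb3 and Pfkfb4 stand in both the further glycolysis and the hypoxia-inducible list.

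The members were alike in their pattern over the 10 libraries to different degrees. Likeness was taken as the root mean square difference (log2) between the centred levels of a gene and the median of the 10 centred profiles. Aldoa lay nearest at 0.15, followed by Eno1 at 0.22 and Ldha at 0.35, while Slc16a3 at 2.25, Hk2 at 1.65 and Pgk1 at 1.56 lay farthest. Across 10050 other genes with at least 10 CPM in some library the median was 1.25. Among the nearest were Ncaph2 at 0.16, Mars at 0.18, Ppme1 at 0.18, Fbxo21, Zswim1, Hspbp1 and Fsd1. The libraries of a set share their experiment, so this is a description with no test.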

How the data were processed

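The values come from 10 RNA-seq libraries, and the other 120 samples of the series were not analysed here. Total RNA was made into Smart-seq2 libraries, per the labels' protocols. Per the submitters' processing notes, the authors used STAR 2.5.3a and RSEM on GRCm38 (mm10). Neither the annotation release nor any use of strand is stated in these notes. Deposited gene values are expected counts, where a read that fits more than 1 gene is divided among them by RSEM, and were rounded to whole numbers. The deposited TPM values are scaled by effective gene length, which differs between libraries (1554 to 2889 bases for Hk2, 2400 to 3893 for Pdk1 and 1686 to 2776 for Slc16a3), so TPM and CPM differ most for these genes.

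CPM used TMM factors (edgeR 4.0.16) over genes at 1 CPM or more in at least 1 library. Intervals are exact conditional binomial (Clopper-Pearson) intervals at 95%. A floor of 3 counts is 0.118 to 0.236 CPM. All 9 comparisons used the rule given in the text over all genes, and the script was tested on simulated data. Members, lists and the motifs were chosen with earlier results of these data known. Named genes were all members, their isozyme partners, up to 4 genes of each list with the largest difference in a comparison, and genes among the 8 most like the members. Some genes that this rule names are not reported here. Gene symbols were found for 99.7% of IDs. Alternatives tried were total-count and DESeq2 1.42.0 size-factor scaling, deposited TPM, other minimum CPM values, another pseudocount, a 1.5-fold threshold, RSEM posterior mean counts and another wild-type library as control. TMM over all genes was added after seeing the data.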

Additional observations from a re-analysis of the deposited data

How the results depend on the processing

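Of 90 values of members, 29 passed the rule, and none of these changed sign by total counts, DESeq2 size factors, TPM, RSEM posterior mean counts or TMM over all genes. The other settings that keep the control library cannot change a sign. Counts of members stayed within 1.5 times of those reported with DESeq2 size factors, a minimum of 10 CPM or none, a pseudocount of 0.1 CPM and RSEM posterior mean counts. For the G9a/GLP DKO label against WT TT2, 1 member was higher by total counts and 1 by TPM, against 0. In Dnmt1/3a/3b TKO against WT J1, 5 were higher and 0 lower by TPM, against 3 and 1. On day 2, 1 was higher by total counts. With TMM factors over all genes, 3 were higher in G9a CM, against 5, because Eno1 and Ldha lie at the threshold. A 1.5-fold threshold gave 2 higher for the G9a/GLP DKO label, 1 lower in Dnmt3a/3b DKO, 5 higher and 2 lower in Dnmt1/3a/3b TKO, 2 higher on day 2, 1 lower on day 4 and 2 lower in the inhibitor control against WT TT2. With WT J1 in place of WT TT2, 6 were higher for the G9a/GLP DKO label. With the inhibitor control in its place, 8 were lower there, and in G9a CM 1 was higher and 7 lower, where Pfkl (-3.15), Aldoa (-1.06), Eno1 (-1.12), Pkm (-2.998) and Ldha (-0.86) reversed. With WT TT2 in place of WT J1, 0 were higher in Dnmt3a/3b DKO as well as 0 in Dnmt1/3a/3b TKO, where Pkm reversed to -0.30. The cause of these changes was not tested.

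By TPM the median over genes measured by CPM moved to a log2 difference of 0.18 for the G9a/GLP DKO label, 0.29 in Dnmt3a/3b DKO, 0.26 in Dnmt1/3a/3b TKO, 0.23 on day 2, 0.23 in the inhibitor control against WT TT2 and -0.27 in WT J1 against WT TT2, and TPM differences of members are to be read against these. The share of higher among all calls was 69.1% by TPM against 57.9% by CPM for the G9a/GLP DKO label, 64.6% against 51.6% in G9a CM, 73.7% against 48.3% in Dnmt3a/3b DKO, 73.9% against 50.9% in Dnmt1/3a/3b TKO, 81.0% against 62.9% on day 2, 64.8% against 53.4% in the inhibitor control and 29.6% against 53.3% in WT J1 against WT TT2. By total counts it was 70.0% for the G9a/GLP DKO label, 63.7% in Dnmt3a/3b DKO, 65.5% in Dnmt1/3a/3b TKO, 83.1% on day 2 and 43.2% in WT J1 against WT TT2, and with DESeq2 size factors 51.6% on day 2. The number of genes higher over all genes fell to 577 with a minimum of 10 CPM, against 1370, in the library labelled G9a/GLP DKO, and to 55, against 256, on day 4. By TPM 666 genes were lower in Dnmt3a/3b DKO, against 1359 by CPM, 732 in Dnmt1/3a/3b TKO, against 1482, and 957 were higher and 2275 lower in WT J1 against WT TT2, where CPM gave 1716 and 1505. On day 2, 660 were higher and 155 lower by TPM and 710 and 144 by total counts, against 415 and 245. No paired analysis was possible because each group has 1 library. Depth limits Slc16a3 in the lines, where it has 8 counts in WT J1. The spread between cultures was not measured.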
